A study of Populus tremula x Populus alba with 14 samples.

Results

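The 5 genes described here are regulators of the vascular cambium in poplar, the meristem that lays down wood on its inner face and phloem on its outer face. They were chosen by identifier, as known cambium regulators, from the 41335 genes of the count table, with earlier results of these data known. They are WOX4a (Potri.014G025300), WOX4b (Potri.002G124100), a pair of PXY-type receptor kinases (Potri.003G107600 and Potri.001G126100) and AIL1 (Potri.002G114800). All 5 were measured in every library and passed the filter on low counts.

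PXY is a receptor kinase at the surface of cambial cells that binds TDIF, a small peptide made in the phloem. In Arabidopsis this signal keeps cambial cells dividing, orients their divisions and raises expression of WOX4, a WUSCHEL-related homeobox transcription factor that promotes cambial cell division. The same receptor and homeobox genes act in poplar stems. AIL1 is an AINTEGUMENTA-type AP2 transcription factor that promotes cell proliferation and, in hybrid aspen, links growth to day length.

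The plants were wild-type hybrid poplar, Populus tremula x Populus alba, of the single clone INRA 717-1B4, grown in a greenhouse and kept outdoors in the growing season. Old outer bark (4 libraries) and young outer bark (3 libraries) held phellem (cork) and the phellogen, its meristem. Old inner bark (4 libraries) and young inner bark (3 libraries) held secondary phloem with the vascular meristem. Old stems were 6 to 8 mm in diameter and young stems were 4 to 5.5 mm. No group carried a transgene or treatment that the labels name.

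Total counts were between 11944485 and 15980636 per library. Outer and inner libraries with the same stem number deviated together from their group means. They are read below as layers of the same stem, 4 old and 3 young stems in all. The fit of group means still counts them as independent libraries. Fits with the stem as a block or random effect do not. Stem 1 of each age stood apart from the others. Old stem 1 was the lowest of 4 for 47.3% of all tested genes in outer bark and for 43.1% in inner bark. It was also the highest of 4 for 32.3% in outer and 31.0% in inner bark. Young stem 1 was the lowest of 3 for 38.0% in outer and 38.8% in inner bark. It was the highest of 3 for 38.1% in outer and 39.4% in inner bark. Since gene names are not paired with identifiers in the deposited tables, lists of related pathway genes and of cork, phloem and wood markers could not be filled, and the labelled layers were not checked against such markers. These are bulk samples of whole layers, in which fewer cambial cells and less RNA per cell cannot be told apart.

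Each of the 5 genes was lower in old than in young stems in both layers. In outer bark all 5 passed the test in that direction, where 13.5% of all tested genes did so. In inner bark all 5 passed as well, against 14.9% of all genes. These calls are from the fit of group means, which counts the layers of a stem as independent. With the stem as a random effect in limma voom, 4 of the 5 passed in outer bark. Beside them, 5613 of the 27673 genes tested passed, counted in either direction. In inner bark 5 of the 5 passed in that fit, beside 7043 of the 27673 genes in either direction. These 2 counts cannot be set against the shares above, which are for the lower direction only. Every old library was below every young library for 5 of the 5 genes in outer bark, as for 20.0% of all genes. The same held for 4 of the 5 in inner bark, as for 18.5% of all genes. The median log2 fold change of the 5 was -2.70 in outer bark, beside -0.01 over all 27673 genes tested, and -2.10 in inner bark, beside 0.03 over all genes. Levels are given below as CPM, counts scaled to a common library size and not divided by gene length, so they compare libraries and not genes.

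**Figure D1:**
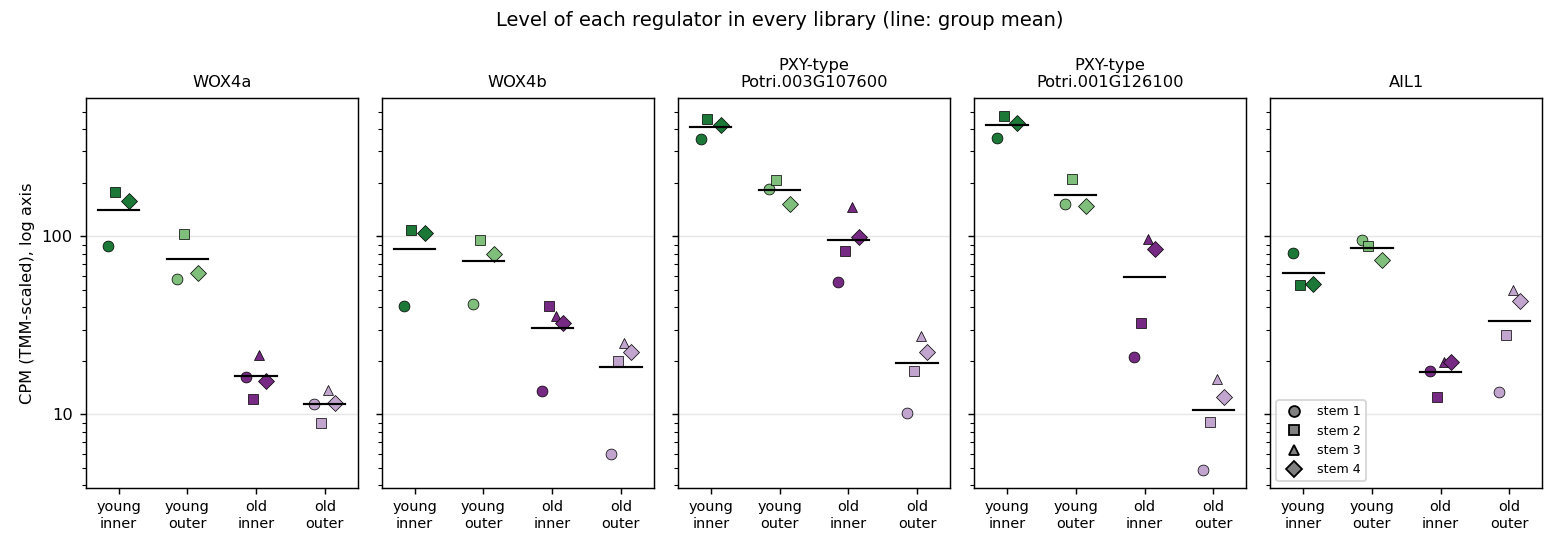
CPM of each regulator on a log axis in all 14 libraries, by age and layer, with a marker shape for each stem number and a line at the group mean. The PXY-type kinases step down from young inner through young outer and old inner to old outer bark without overlap, while AIL1 is the only gene of the 5 whose mean is higher in outer than in inner bark at each age.

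The receptor kinases carried the widest range. Potri.003G107600 was at 354, 456 and 421 CPM in the inner bark of young stems 1, 2 and 4, and at 184, 207 and 153 CPM in their outer bark. In old stems 1 to 4 it was at 55.3, 83.2, 146 and 98.8 CPM in inner bark and at 10.2, 17.4, 27.4 and 22.4 CPM in outer bark. Every young library was above every old library of either layer, and no neighbouring groups overlapped in the order young inner, young outer, old inner, old outer. Group means fell from 410.5 ± 52.1 CPM in young inner (SD, n = 3) to 95.8 ± 38.0 CPM in old inner bark (SD, n = 4), and from 181 ± 26.9 CPM in young outer (SD, n = 3) to 19.4 ± 7.35 CPM in old outer bark (SD, n = 4). The old-minus-young log2 fold change was -3.22 ± 0.35 in outer bark (SE; edgeR adjusted p = 0.000571) and -2.10 ± 0.34 in inner bark (SE; edgeR adjusted p = 0.00177).

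Its partner Potri.001G126100 showed the same order of groups with a larger drop. It was at 357, 476 and 435 CPM in young inner bark and at 153, 209 and 148 CPM in young outer bark. In old stems 1 to 4 it was at 21.1, 32.7, 96.5 and 85.4 CPM in inner bark and at 4.88, 9.07, 15.8 and 12.6 CPM in outer bark. Here too the groups did not overlap, and the lowest young outer library was 9.39-fold above the highest old outer library. Old outer bark held 6.23% of the young outer mean, the smallest remainder among the 5 genes and both layers. The old-minus-young log2 fold change was -4.003 ± 0.525 in outer bark (SE; edgeR adjusted p = 0.000925), a value that 1.47% of all genes tested reached or went below. In inner bark it was -2.84 ± 0.50 (SE; edgeR adjusted p = 0.00252). All 26 alternatives run for each kinase in each layer kept these 4 calls.

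Of the homeobox genes, WOX4a had the larger fold changes with age, a difference that was not tested. WOX4a was at 88.2, 177 and 157 CPM in young inner bark and at 57.8, 104 and 62.3 CPM in young outer bark. In old stems 1 to 4 it was at 16.3, 12.2, 21.7 and 15.4 CPM in inner bark and at 11.5, 9.00, 13.7 and 11.7 CPM in outer bark. Young and old libraries were far apart, by at least 4.07-fold between the lowest young and the highest old library of a layer. The layers overlapped within each age. The old-minus-young log2 fold change of WOX4a was -3.10 ± 0.29 in inner bark (SE; edgeR adjusted p = 0.000248), the largest inner bark drop of the 5 genes, and -2.70 ± 0.29 in outer bark (SE; edgeR adjusted p = 0.00053). Both calls held in all 26 alternatives for each layer.

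WOX4b had smaller fold changes than WOX4a, and its calls were sensitive to single libraries. It was at 40.5, 109 and 104 CPM in young inner bark and at 41.7, 95.5 and 80.0 CPM in young outer bark. In old stems 1 to 4 it was at 13.6, 40.7, 35.6 and 32.4 CPM in inner bark and at 5.99, 20.0, 25.2 and 22.5 CPM in outer bark. Stem 1 was the lowest of its group in all 4 groups, and the inner bark of young stem 1 lay within the range of old inner bark. WOX4b was the only gene of the 5 whose young and old groups overlapped, in inner bark. The old-minus-young log2 fold change was -1.98 ± 0.51 in outer bark (SE; edgeR adjusted p = 0.019) and -1.47 ± 0.51 in inner bark (SE; edgeR adjusted p = 0.0472). The outer bark call was lost without young outer replicate 2 (edgeR adjusted p = 0.0679) or 4 (0.0612). The inner bark call was lost in limma voom (adjusted p = 0.0581). It was also lost on leaving out each old inner library in turn, without old outer replicate 2, 3 or 4, without young inner replicate 2 or 4 or without young outer replicate 4, with edgeR adjusted p between 0.0549 and 0.149.

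AIL1 was lower in old stems in the same way, but it was distributed differently between the layers. It was at 80.6, 53.5 and 53.9 CPM in young inner bark and at 95.2, 87.9 and 73.6 CPM in young outer bark. In old stems 1 to 4 it was at 17.5, 12.5, 19.7 and 19.6 CPM in inner bark and at 13.4, 27.8, 49.8 and 43.4 CPM in outer bark. Young and old groups did not overlap in either layer, while within each age the layers did. For AIL1 the log2 fold change with age was -1.86 ± 0.36 in inner bark (SE; edgeR adjusted p = 0.00366) and -1.35 ± 0.35 in outer bark (SE; edgeR adjusted p = 0.0195). The outer bark call was lost without old outer replicate 2 (edgeR adjusted p = 0.0559) or young outer replicate 2 (0.0579), in a fit of the outer bark libraries alone (0.0681) and with the stem as a random effect in limma voom (0.0509). That last fit takes account of the layers of a stem not being independent.

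**Figure D2:**
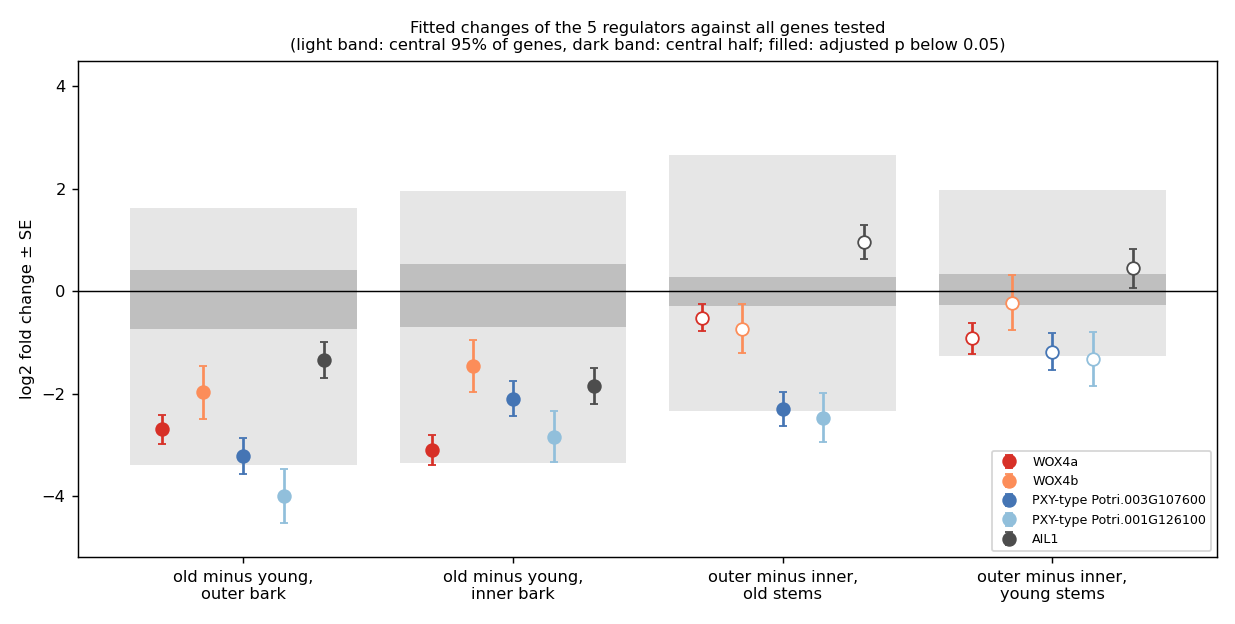
Fitted log2 fold changes with SE of the 5 regulators in the comparisons of age and of layer, filled where the edgeR adjusted p was below 0.05, over grey bands for the 27673 genes tested. All 5 lie below 0 and are filled in both comparisons of age, and only the PXY-type kinases are filled in the layer comparison of old stems.

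The comparison of layers asks where in the bark these transcripts were found. The PXY-type kinases were lower in outer than in inner bark, AIL1 had its higher mean in outer bark, and the WOX4 genes lay between. In old stems the kinases passed the test as lower in outer bark, 2 of the 5 genes, where 5.07% of all tested genes were called in that direction. Every outer library of the kinases was below every inner library in old stems, as for 7.27% of all genes. The same held for the kinases in young stems, as for 12.2%. With the stem as a block, 4 of the 5 were lower in old outer bark and AIL1 was higher, against 20.4% and 18.8% of all genes. In young stems 0 of the 5 passed in the fit of group means, in which 0.387% of genes were called in either direction. At an unadjusted p below 0.05 there were 3 of the 5 in edgeR, beside 3595 of all 27673 genes. DESeq2 called 1 of the 5 after adjustment, Potri.003G107600, beside 1297 genes in all. With the stem as a block, 3 of the 5 were lower in young outer bark, against 14.7% of all genes.

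Potri.003G107600 in outer bark was at 18.4%, 21.0%, 18.8% and 22.7% of its inner level in old stems 1 to 4. In young stems 1, 2 and 4 the same percentage was 51.9, 45.3 and 36.3. The old and young percentages did not overlap, a separation that was not counted over all genes. The outer level was below the inner level in all 7 stems. The outer-minus-inner log2 fold change was -2.31 ± 0.33 in old stems (SE; edgeR adjusted p = 0.00204). In young stems it was -1.18 ± 0.37 (SE; edgeR adjusted p = 0.169), and -1.18 ± 0.10 with the stem as a block (SE; edgeR adjusted p = 0.000254).

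Potri.001G126100 in outer bark was at 23.1%, 27.8%, 16.3% and 14.8% of its inner level in old stems 1 to 4, and at 42.7%, 43.9% and 34.0% in young stems 1, 2 and 4. It too was lower in outer bark in all 7 stems, a pattern that 15.5% of tested genes shared. Its log2 fold change was -2.48 ± 0.48 in old stems (SE; edgeR adjusted p = 0.00769). In young stems it was -1.32 ± 0.53 (SE; edgeR adjusted p = 0.301), and -1.32 ± 0.15 with the stem as a block (SE; edgeR adjusted p = 0.000551). The old stem calls of both kinases held in all 26 alternatives, with an adjusted p of at most 0.0352.

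WOX4a was lower in outer bark in all 7 stems by a smaller amount. Its outer level was between 63.2% and 75.7% of the inner level in old stems and between 39.6% and 65.5% in young stems. Averaged over the ages, the outer-minus-inner log2 fold change was -0.72 ± 0.20 (SE; edgeR adjusted p = 0.0312), in a comparison that called 6.40% of genes as lower in outer bark and 3 of the 5 regulators, WOX4a and the kinases. This WOX4a call was lost without old inner replicate 3, old outer replicate 2 or 4, young inner replicate 2 or 4, or young outer replicate 1 or 4 (edgeR adjusted p between 0.0556 and 0.086). With the stem as a block it was -0.71 ± 0.09 (SE; edgeR adjusted p = 0.000173), and of the 5 genes 4 were lower and 1 (AIL1) was higher in outer bark, against 23.1% and 23.4% of all genes. Within an age, WOX4a did not pass in the fit of group means, with edgeR adjusted p of 0.285 in old and 0.192 in young stems. With the block it passed at each age, at -0.51 ± 0.12 in old stems (SE; edgeR adjusted p = 0.0103) and -0.91 ± 0.12 in young stems (SE; edgeR adjusted p = 0.000991).

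WOX4b in outer bark was at 44.2%, 49.2%, 70.7% and 69.3% of its inner level in old stems 1 to 4, and at 103%, 88.0% and 76.6% in young stems 1, 2 and 4. The ranges of the ages did not overlap, a separation that was not counted over all genes. The change of this layer difference with age did not pass with the stem as a block (edgeR adjusted p = 0.0681). Among the 7 stems, only young stem 1 had slightly more in outer bark. In old stems the log2 fold change was -0.73 ± 0.48 (SE; edgeR adjusted p = 0.441), and -0.78 ± 0.12 with the stem as a block (SE; edgeR adjusted p = 0.00105). In young stems it did not pass in either fit, at -0.22 ± 0.54 with group means (SE; edgeR adjusted p = 0.922) and -0.18 ± 0.13 with the block (SE; edgeR adjusted p = 0.321).

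AIL1 was higher in outer bark in 6 of 7 stems. The outer level was 2.22-fold, 2.53-fold and 2.22-fold the inner level in old stems 2, 3 and 4, and 1.18-fold, 1.64-fold and 1.37-fold in young stems 1, 2 and 4. Old stem 1 went the other way, with an outer level at 76.5% of the inner level. In old stems the log2 fold change was 0.96 ± 0.33 (SE; edgeR adjusted p = 0.0946), and 0.85 ± 0.26 with the stem as a block (SE; edgeR adjusted p = 0.0299). Without old outer replicate 1, from the stem that went the other way, it was 1.22 ± 0.24 (SE; edgeR adjusted p = 0.00777). Leaving out any other single library gave no call, with values down to 0.705 and edgeR adjusted p up to 0.249. DESeq2 called AIL1 with all libraries kept, at 0.97 ± 0.35 in old stems (SE; DESeq2 adjusted p = 0.0346) and at 0.68 ± 0.26 averaged over the ages (SE; DESeq2 adjusted p = 0.0456). With group means in edgeR that average did not pass, at 0.70 ± 0.25 (SE; edgeR adjusted p = 0.0834). In young stems AIL1 did not pass, at 0.45 ± 0.38 with group means (SE; edgeR adjusted p = 0.713) and 0.47 ± 0.27 with the block (SE; edgeR adjusted p = 0.216).

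**Figure D3:**
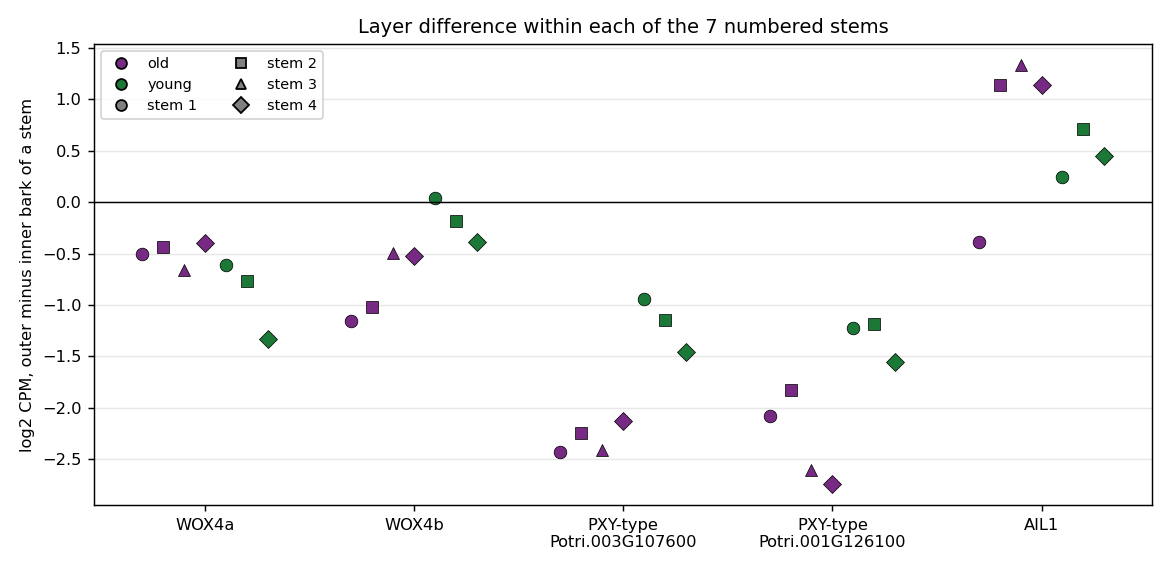
Outer minus inner log2 CPM within each of the 7 numbered stems for each regulator, with old stems in purple and young stems in green. The kinases lie below 0 in every stem and lower in old than in young stems, and AIL1 lies above 0 in every stem but old stem 1.

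Whether the layer difference changed with age was tested by subtracting the young layer contrast from the old. With group means edgeR called 0 of the 5 genes, and 0% of all genes. At an unadjusted p below 0.05 there were 1 of the 5 (Potri.003G107600) and 1226 of all genes, and DESeq2 called 0 of the 5 and 42 genes in all. With the stem as a block, both PXY-type kinases had a more negative layer contrast in old stems, 2 of the 5 genes, where 6.99% of all genes were called in that direction. The difference was -1.13 ± 0.14 for Potri.003G107600 (SE; edgeR adjusted p = 0.00321) and -1.05 ± 0.21 for Potri.001G126100 (SE; edgeR adjusted p = 0.0188). With the stem as a random effect in limma voom, the call held for Potri.003G107600 (adjusted p = 0.0112) and not for Potri.001G126100 (adjusted p = 0.151). The other 3 genes did not pass in the blocked fit, with edgeR adjusted p of 0.184 for WOX4a, 0.0681 for WOX4b and 0.548 for AIL1. The old outer means were 10.7% and 6.23% of the young outer means, and the old inner means were 23.3% and 13.9% of the young inner means, for Potri.003G107600 and Potri.001G126100.

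Ratios between the genes within a library do not depend on how libraries are scaled. Old outer bark stood apart in both ratios given here, while the other groups overlapped in part. AIL1 had 22.9, 10.8, 8.10 and 10.6 counts per 100 counts of the PXY-type pair in the inner bark of old stems 1 to 4. In their outer bark it had 88.9, 105, 115 and 124. In young stems 1, 2 and 4 the ratio was 11.3, 5.74 and 6.29 in inner bark and 28.3, 21.2 and 24.4 in outer bark. The ratio was higher in outer than in inner bark in all 7 stems, old stem 1 included, and old outer bark lay above all other libraries. The summed WOX4 genes had 103 ± 11.7 counts per 100 PXY-type counts in old outer bark and 33.6 ± 10.5 in the inner bark of the same stems (SD, n = 4). In young stems they had 41.6 ± 10.4 in outer and 26.4 ± 7.22 in inner bark (SD, n = 3). Old outer bark again did not overlap with any other group. Gene lengths are not in these ratios, so they compare libraries only, and no test was made of them.

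The balance of the PXY-type pair also stood apart between the ages, while that of the WOX4 pair overlapped between the ages in outer bark. Potri.003G107600 took 49.8%, 48.9% and 49.2% of the counts of the PXY-type pair in young inner bark and 54.6%, 49.7% and 50.8% in young outer bark. In old stems 1 to 4 it took 72.4%, 71.8%, 60.2% and 53.6% in inner bark and 67.6%, 65.8%, 63.5% and 64.0% in outer bark. The outer bark shares of the ages did not overlap. In inner bark the lowest old share, in stem 4, had an exact 95% interval of 51.5% to 55.7%, above the highest young inner interval of 48.9% to 50.7%. WOX4a took between 60.1% and 68.6% of the WOX4 pair in young inner and between 43.8% and 58.1% in young outer bark. In old stems 2, 3 and 4 it took between 23.1% and 37.9% over both layers, and stem 1 stood apart at 54.6% in inner and 65.7% in outer bark, the latter above every young outer library. No test was made of the shares. These shares are counts that were not divided by length, intervals cover counting error only, and the counting may have divided reads between similar copies.

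**Figure D4:**
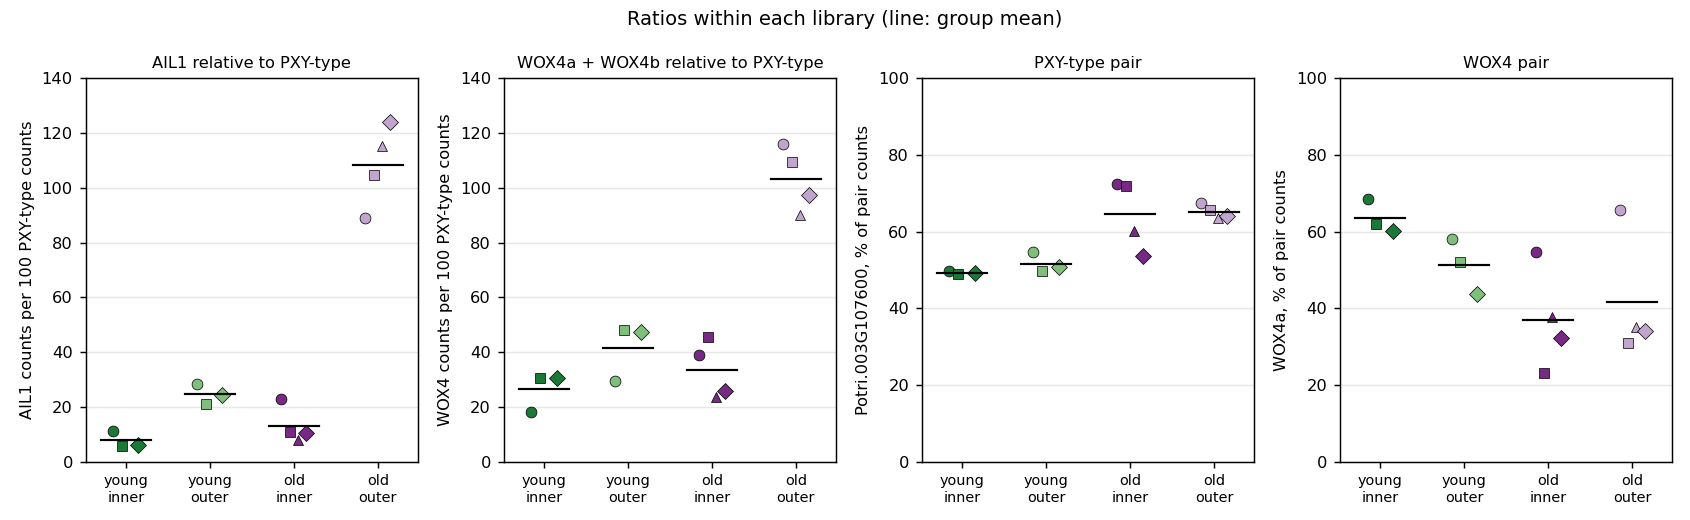
Ratios within each of the 14 libraries, with a line at the group mean: AIL1 counts and summed WOX4 counts per 100 PXY-type counts, and the percentage of pair counts held by Potri.003G107600 and by WOX4a. Both ratios to the PXY-type pair are highest in old outer bark, the Potri.003G107600 share is near 50% in young bark and above it in old bark, and stem 1 has the highest WOX4a share in all 4 groups.

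The spread between stems was wider in old than in young bark for the kinases, but not for all 5 genes. For WOX4a the SD was 24.0% of the mean in old inner and 16.8% in old outer bark, against 33.1% and 33.9% in young bark. WOX4b and AIL1 had the wider spread in old stems in outer bark and in young stems in inner bark. The SD of Potri.001G126100 was 63.8% of the mean in old inner and 44.3% in old outer bark (n = 4), against 14.3% in young inner and 19.9% in young outer bark (n = 3). Old stem 3 was the highest of the 4 for all 5 genes in outer bark and for 4 of 5 in inner bark. Over all tested genes it was the highest for 24.3% in outer and 21.1% in inner bark. Old stem 1 was the lowest for 4 of 5 genes in outer bark, where it was lowest for 47.3% of all genes, and for 3 of 5 in inner bark. In young stems, stem 2 was the highest for 4 of 5 genes in each layer, against 32.9% of all genes in outer and 32.6% in inner bark, and AIL1 was highest in stem 1.

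The kinases followed each other closely over the 14 libraries. Ranked by level, the libraries stood in the same order for both kinases (Spearman rho of 1, Pearson r of 0.99 in log2 CPM). Among 24814 genes compared, Potri.001G126100 was the number 3 match of Potri.003G107600. After the group means were removed, which leaves the differences between stems, the r between the kinases was 0.93. The same r was 0.76 between WOX4b and Potri.003G107600 and 0.69 between WOX4b and Potri.001G126100. WOX4a was less tied to the others between stems, at 0.40 with WOX4b, 0.45 with each kinase and 0.07 with AIL1. AIL1 and the kinases were at 0.67 and 0.61. These values are descriptions, since the libraries share stems, groups and scaling.

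**Figure D5:**
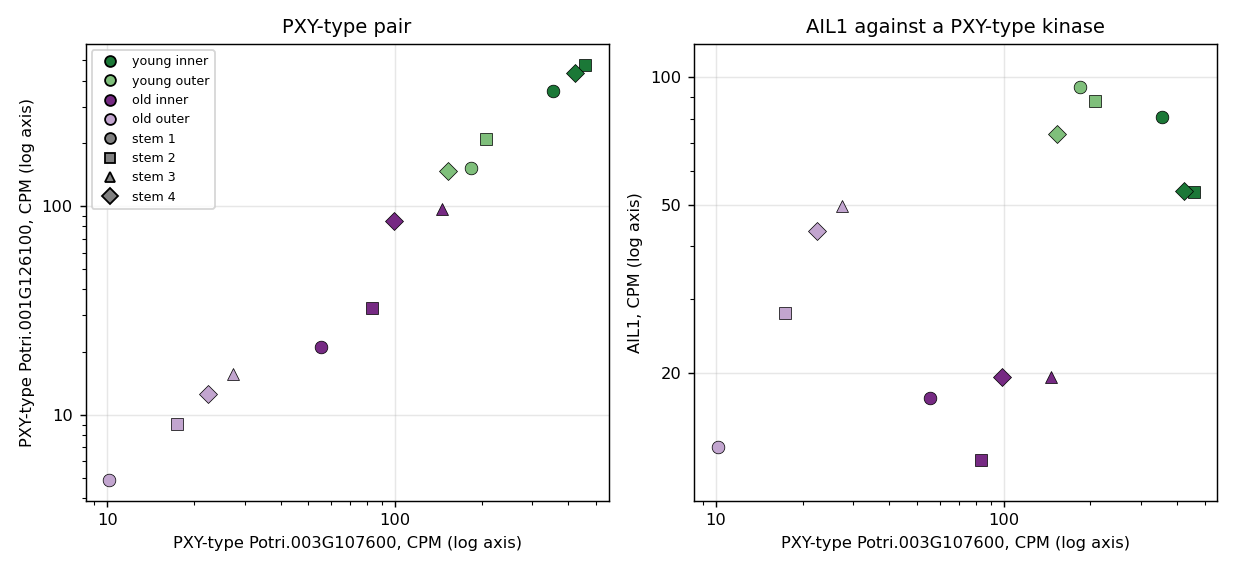
CPM of Potri.003G107600 on the x axis against Potri.001G126100 and against AIL1 on the y axis, both log axes, with 1 point per library. The kinases lie along a single line through all 4 groups, whereas AIL1 against the kinase forms separate groups by age and layer and no single line.

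Outside the 5 genes, the closest match of each was looked up over the 14 libraries among 24810 genes. They were Potri.014G071700 for WOX4a (r of 0.99), Potri.017G130300 for WOX4b (0.98), Potri.011G025500 for Potri.003G107600 (0.99), Potri.016G137000 for Potri.001G126100 (0.99) and Potri.005G173500 for AIL1 (0.97). Potri.016G137000 had means of 96.4 CPM in young inner, 39.6 CPM in young outer, 15.8 CPM in old inner and 4.02 CPM in old outer bark, the order of the kinases. Potri.005G173500 had means of 19.8 CPM in the outer and 15.6 CPM in the inner bark of young stems, and 6.44 CPM in the outer and 4.01 CPM in the inner bark of old stems, the order of AIL1. An r above 0.9 was common, with 1078 genes for Potri.001G126100, 845 for Potri.003G107600, 712 for WOX4a, 560 for WOX4b and 250 for AIL1.

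The authors' deposited tables of the layer comparison give the same directions for all 5 genes at each age. For old stems, the authors' deposited table has an edgeR adjusted p of 1.7e-06 for Potri.003G107600, 4.9e-05 for Potri.001G126100 and 0.11 for AIL1. For young stems, the authors' deposited table has an edgeR adjusted p of 0.043 for Potri.003G107600 and 0.02 for Potri.001G126100, which did not pass with group means here. In the authors' deposited table the DESeq adjusted p of Potri.001G126100 was 0.06 in old and 0.027 in young stems. That of Potri.003G107600 in the authors' deposited table was 0.00065 in old and 0.065 in young stems.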

How the data were processed

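The authors deposited whole-number read counts per gene for 14 libraries, with no normalization, as the file headers and values show. Tools named in the submitters' processing notes are CASAVA, Trimmomatic, TopHat, Bowtie, Cufflinks, HTSeq, DESeq and edgeR, with versions and a genome build not given in the sources used here. Libraries were not strand-specific, per the labels' protocols, so antisense neighbours cannot be told apart. The authors' deposited comparison tables hold log2 fold changes, log2 CPM and p-values, per the file headers. Their normalized columns, rounded scores per the file headers, were not used.

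The 5 genes and all lists were chosen with earlier results of these data known. Counts were scaled by TMM and fitted in edgeR 4.0.16 under R 4.3.3 (quasi-likelihood F test, 4 group means, 10 residual degrees of freedom) over the 27673 of 41335 genes that passed filterByExpr. Benjamini-Hochberg adjustment ran over these genes, with a threshold of 0.05. The SE is the size of the log2 fold change divided by the root of F. CPM use the TMM-scaled totals, and log2 CPM for stem differences and likeness a prior count of 2.

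Deviations from group means of the layers of a stem number correlated at 0.60 to 0.82, above every other stem of that age, so the number was taken to pair the layers, although the labels do not state it. The blocked fit has 5 residual degrees of freedom. Numbers did not pair the ages (correlations of -0.13 to 0.13). Since the labels do not call the stems separate trees, a p-value reflects the spread among the samples at hand. No pair of libraries within a group matched within counting noise. Alternatives were RLE and upper-quartile scaling, other filters, DESeq2 1.42.0, limma 3.58.1 (voom), the blocks, only the groups compared and leaving out libraries. Blocked fits without number 1 or with RLE factors were added after seeing the data. The fits were also run on simulated counts drawn independently for each library, with no stem effect. That run cannot check how the fits handle the paired layers. The genes closest to each regulator were the other genes of highest Pearson r, with a floor of 0 on the mean log2 CPM. The nearest is named, by identifier only. The 12 pathway lists and 3 marker lists could not be filled without gene names. Intervals of shares are exact Clopper-Pearson at 95%.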

Additional observations from a re-analysis of the deposited data

Results flagged for a closer look

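Of 19 sets of 4 old-stem values examined for the 5 genes, 2 held a value far from the other 3. Chance alone would flag near 1 in 20 of independent sets. These sets share libraries, so that rate does not apply to them. The outer-minus-inner log2 difference of AIL1 was -0.3835 in old stem 1, against 1.14 to 1.33 in the other old stems. The WOX4a share of the WOX4 pair was 65.74% in the outer bark of old stem 1, against 31.1% to 35.3% in the others. The layer contrast differed between the ages for both PXY-type kinases with the stem as a block, by -1.127 on the log2 scale for Potri.003G107600 and -1.047 for Potri.001G126100. With the stem as a random effect in limma voom the call was lost for Potri.001G126100 (adjusted p = 0.151), and with group means edgeR called neither.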

How the results depend on the processing

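Of 770 alternative values for the 30 fold changes of the 5 genes, 694 kept their direction and side of the threshold, 24 lost a call, 51 gained one and 1 reversed: WOX4b in young stems was 0.0563 without young outer replicate 1 (range -0.56 to 0.0563 over the libraries left out), a result that did not pass in either case. The number of the 5 genes called in old stems between layers was 2, and 5 with the stem as a fixed or a random replicate block, 5 in the block with RLE factors or without number 1 of both ages, 4 without number 1 and no block, and 3 in DESeq2. In young stems it was 0, and 3 with either block, 3 in the block with RLE factors, 4 in the block without number 1, 1 without number 1 and no block, and 1 in DESeq2. Averaged over the ages it was 3, and 5 with either block, with the block and RLE factors, and without number 1 with or without the block, and 4 in DESeq2. For the difference between ages it was 0, also in DESeq2, and 2 with the fixed block, 1 with the random block, 2 with RLE factors and 3 without number 1 in the block. Leaving out each library gave 2 to 3 genes in old stems, 0 in young stems, 2 to 4 averaged over the ages, 3 to 5 of 5 for age in outer bark, 4 to 5 for age in inner bark and 0 for the difference between ages. A block of numbers shared across the ages, which nothing in the labels or the pairing check bears out, left all 5 age calls in each layer, as did DESeq2. In outer bark 4 of the 5 age calls were left with the stem as a random effect and with only the 2 groups compared. In inner bark 4 were left in limma voom without the stem. The cause of these changes was not tested.

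With group means removed, likeness over libraries moved to 0.40 for the WOX4 genes, 0.45 for WOX4a with Potri.003G107600 and 0.45 with Potri.001G126100, 0.069 for WOX4a with AIL1 and 0.93 for the kinases. As Spearman rho it moved to 0.96 for WOX4a with Potri.003G107600 and 1 for the kinases. Mean levels moved by less than their SD under RLE factors or unscaled totals. Losing 1 of 3 or 4 libraries always moves a group mean by less than its SD. That check could therefore not fail, for levels or for pair shares, and nothing is drawn from it. WOX4b in old outer bark rested on as few as 86 counts and Potri.001G126100 on 70 counts in a library, which limits the precision of their ratios there.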
